A study of Mus musculus with 10 samples.

Results

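The lens epithelium of mice that overexpress active TGF-β1 was examined for a group of 9 genes that encode neuropeptide precursors, a peptide-binding protein, a kininogen and a peptide receptor. The genes were Gal, Sct, Penk, Pdyn, Cartpt, Scg2, Crhbp, Kng2 and Tacr1, taken by name out of 50763 genes in the count table. They were picked with their changes in the transgenic lines against wild-type (WT) already known, so their levels in each line against WT are given as a description, without a test. All 9 genes had a count in each of the 10 libraries and all 9 passed the filter on low counts that left 18058 genes.

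Lens epithelial tissue of mice on an FVB/N background was collected at 3 weeks of age, and RNA-seq was performed on 3 WT pools, 3 pools of the line OVE853 and 4 pools of the line OVE918. In both lines the αA-crystallin promoter of the mouse, which is active in the lens alone, drives a transgene for human TGF-β1 that needs no activation once secreted. Both develop anterior subcapsular cataract, a fibrotic plaque under the front of the lens capsule. The mice were homozygous, with both sexes equally drawn from several litters. Each WT or OVE853 pool came from up to 9 mice and each OVE918 pool from up to 7, so that every replicate is a separate pool and the spread between replicates is one between pools. Whole epithelium was taken rather than the plaque alone, and the groups differ in line and transgene insertion as well as in TGF-β1 level.

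Neuropeptides are cut from larger precursor proteins in the secretory pathway, stored in dense core granules and released to act on G protein-coupled receptors of the same or other cells. Galanin, the enkephalins and dynorphins, secretin and the peptides of the Cartpt precursor are best known from nerve and gut, secretogranin II is a granule protein that is itself cut into peptides, and kininogen is the plasma precursor of bradykinin. The lens has no nerve supply of its own, and peptides reach it through the aqueous humor, which the neighbouring ciliary epithelium secretes.

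Library totals ranged from 24073311 to 28645174 counts in WT, from 27409730 to 31908525 in OVE853 and from 25342220 to 28562553 in OVE918. Levels are CPM, the counts of a gene relative to its library total, scaled by TMM, a factor that corrects for library composition. Tgfb1, to whose mouse locus reads of the human transgene can also map, was at 52.1 ± 6.68 CPM (SD, n = 3) in WT, 337 ± 11.4 (n = 3) in OVE853 and 753 ± 71.0 (n = 4) in OVE918, without overlap between groups. A differentially expressed gene (DEG) was called where the FDR did not exceed 0.05 and the level changed by 2-fold or more. All 8 lens epithelial markers had counts in every library, with a summed level of 146000 to 154000 CPM in WT, 101000 to 114000 in OVE853 and 126000 to 188000 in OVE918. Cryaa and Cryab made up most of this sum, with means of 112000 and 35500 CPM in WT. Of the 8, only Gja1 was a DEG, reduced in both lines, at 520 ± 36.4 CPM in WT, 106 ± 14.2 in OVE853 and 63.9 ± 9.88 in OVE918. WT replicate 3 stood apart. All 18 retinal neuron markers were highest there among the WT libraries, with a summed level of 1270 CPM against 260 and 267 in the other WT libraries, and the Müller glia markers summed to 1470 CPM against 452 and 457. Of the 9 genes, 7 were highest in WT replicate 3 among the WT libraries (77.8%), against 40.0% of all genes tested. The fold changes are therefore given with and without that library.

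**Figure D1:**
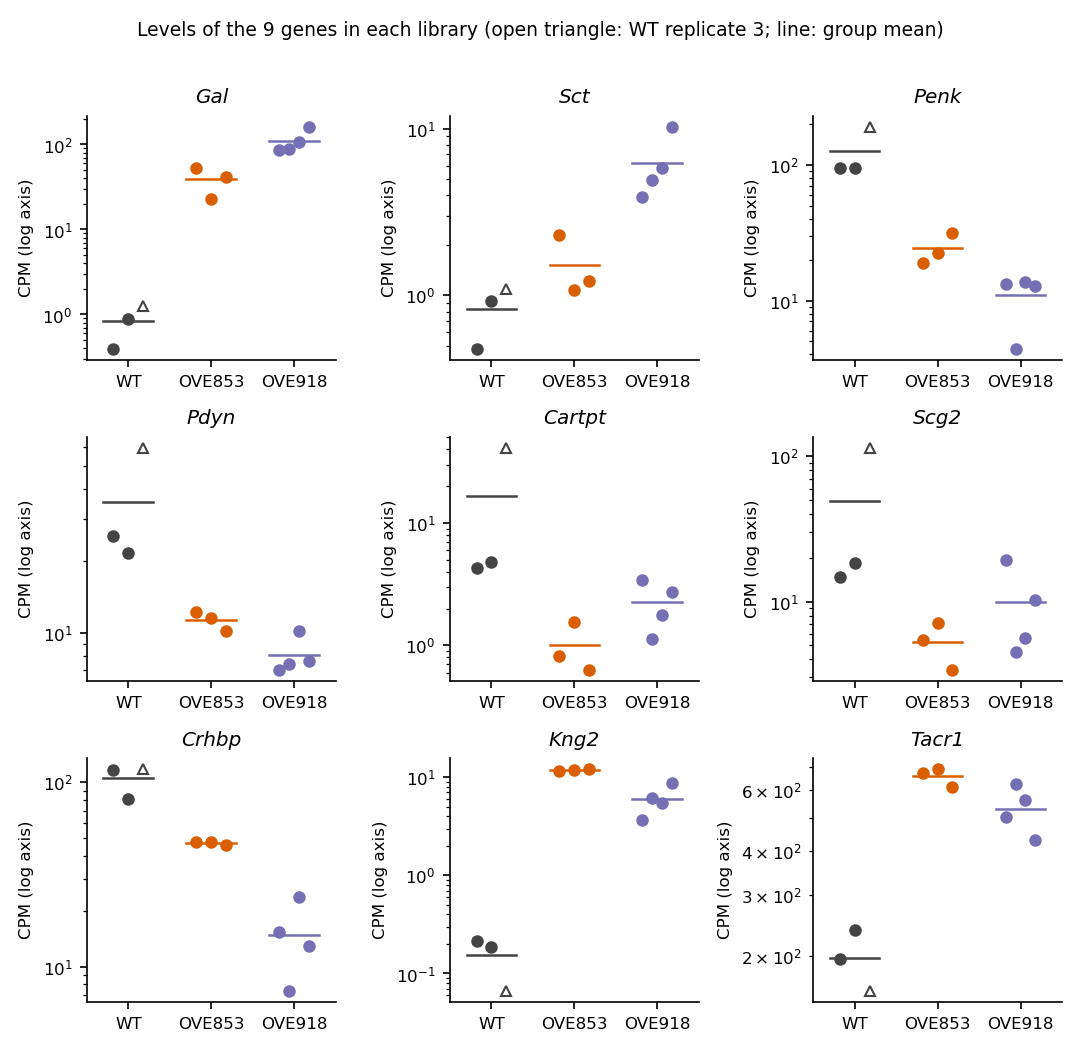
Level of each of the 9 genes (y axis, CPM on a log axis with its own range in each panel) in the WT, OVE853 and OVE918 libraries (x axis); points are libraries, the open triangle is WT replicate 3 and the short line is the group mean. Gal, Kng2 and Tacr1 lie above WT in both lines, Sct clears WT in OVE918, and Penk, Pdyn, Crhbp and Cartpt lie below every WT library in both lines.

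Gal and Sct were the peptide precursors with higher levels in the lines. Gal, which encodes galanin, a neuropeptide found in sensory and brain neurons and raised in many of them after injury, was barely present in WT, with 0.389, 0.893 and 1.25 CPM (9, 24 and 38 counts). It was at 52.5, 22.7 and 41.3 CPM in OVE853 and at 85.7, 87.8, 108 and 160 CPM in OVE918. No library of one group overlapped with another group, and every OVE918 library was above every OVE853 library. The group means were 0.844 ± 0.433 CPM in WT (SD, n = 3), 38.8 ± 15.1 in OVE853 (n = 3) and 110 ± 34.7 in OVE918 (n = 4). Over WT the log2 fold change came to 5.47 (SE 0.47) in OVE853 and 6.98 (SE 0.48) in OVE918, and without WT replicate 3 it was 5.85 and 7.38. The receptors through which galanin acts were near 0. Galr1, Galr2 and Galr3 had at most 5 counts in any library and did not pass the filter.

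Gal lies on chromosome 19 at 3459912 to 3464881 on the minus strand of GRCm39 and has 6 exons. The 250 bases before its RefSeq start site, at chr19:3464545-3464794 on the minus strand, are shown because Gal had the largest fold change of the 9 genes in OVE918, and CAGAC or its reverse complement, the core bound by SMAD proteins, is in capitals.
Gal: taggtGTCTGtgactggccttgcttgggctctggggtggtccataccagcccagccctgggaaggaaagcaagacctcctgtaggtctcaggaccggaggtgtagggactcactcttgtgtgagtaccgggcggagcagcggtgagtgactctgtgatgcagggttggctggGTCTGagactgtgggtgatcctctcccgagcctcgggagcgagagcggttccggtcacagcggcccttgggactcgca
The core stood at 245 and at 78 bases before the start. It is a common stretch of letters, held by 42.2% of 32851 RefSeq promoter windows of the same length, and 4 of the 8 genes with a window held it (Cartpt, Gal, Pdyn and Tacr1). Such a match is a description of letters and not a measured binding site.

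Sct encodes secretin, the gut hormone that drives bicarbonate secretion. Its level was 0.475, 0.93 and 1.09 CPM in WT and 2.3, 1.07 and 1.22 CPM in OVE853. These groups overlapped. In OVE918 it was 3.9, 4.9, 5.81 and 10.2 CPM, above every library of the other groups. The means were 0.83 ± 0.318, 1.53 ± 0.67 and 6.21 ± 2.78 CPM. Against WT this gave a log2 fold change of 0.87 (SE 0.45) in OVE853 and 2.88 (SE 0.45) in OVE918, or 1.08 and 3.11 without WT replicate 3. The OVE853 value was 0.45 without OVE853 replicate 1, the highest library of its group. Sctr, the secretin receptor, had at most 15 counts in any library and was not tested. Sct is a short gene of 4 exons on chromosome 7, at 140858243 to 140859052 on the minus strand.

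The opioid precursors were both lower in the lines. Penk, the precursor of the enkephalins, was at 95.7, 94.9 and 191 CPM in WT, at 18.9, 22.6 and 31.5 CPM in OVE853 and at 13.3, 4.36, 13.8 and 12.7 CPM in OVE918. The 3 groups were fully separated, with OVE918 lowest and WT replicate 3 highest. The means were 127 ± 55.2 CPM in WT, 24.3 ± 6.44 in OVE853 and 11 ± 4.48 in OVE918. Its log2 fold change was −2.39 (SE 0.43) in OVE853 and −3.53 (SE 0.41) in OVE918, or −2.0 and −3.12 without WT replicate 3. As bulk pools were measured, fewer cells that express a gene and less RNA per cell cannot be told apart, here or for any gene below. The locus is on chromosome 4 at 4132722 to 4141856, minus strand, and GENCODE places A830012C17Rik and Gm70307 on the opposite strand across it. The counting used strand.

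Pdyn, the precursor of the dynorphins, was at 25.4, 21.5 and 59.2 CPM in WT, at 12.2, 11.5 and 10.2 CPM in OVE853 and at 6.98, 7.41, 10.2 and 7.63 CPM in OVE918. Both lines lay below every WT library, while the lines overlapped each other. Its log2 fold change was −1.65 (SE 0.34) in OVE853 and −2.13 (SE 0.31) in OVE918. Without WT replicate 3, at 2.52 times the mean of the other WT libraries, it was −1.08 and −1.55. The ratio of Penk to Pdyn, in CPM and not corrected for length, was 3.23 to 4.42 in the WT libraries, 1.55 to 3.09 in OVE853 and 0.588 to 1.9 in OVE918, so the difference from WT was larger for Penk. The opioid receptors Oprd1, Oprk1 and Oprm1 had at most 11 counts in any library, and at most 3 outside WT replicate 3.

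Cartpt and Scg2 were lower in the lines, but their size rested on WT replicate 3. Cartpt, the precursor of the CART peptides, which regulate appetite in the brain and occur in some retinal amacrine cells, was at 4.27, 4.84 and 40.9 CPM in WT, at 0.813, 1.56 and 0.626 CPM in OVE853 and at 3.45, 1.13, 1.77 and 2.72 CPM in OVE918. WT replicate 3 was 8.97 times the mean of the other WT libraries, and both lines still lay below every WT library. With all libraries its log2 fold change was −4.06 (SE 0.94) in OVE853 and −2.89 (SE 0.79) in OVE918, and −2.22 and −1.02 without WT replicate 3.

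Scg2, which encodes secretogranin II, a dense core granule protein and the precursor of secretoneurin, was at 14.8, 18.5 and 114 CPM in WT, at 5.4, 7.1 and 3.36 CPM in OVE853 and at 19.3, 4.47, 5.62 and 10.2 CPM in OVE918. OVE853 lay below every WT library, whereas OVE918 replicate 1 was above the lower WT libraries, so OVE918 and WT overlapped. The log2 fold change was −3.22 (SE 0.87) in OVE853 and −2.32 (SE 0.75) in OVE918. Without WT replicate 3, which was 6.88 times the mean of the other WT libraries, it was −1.68 and −0.76.

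The retinal markers moved with both genes. The retinal neuron markers summed to 260 to 1270 CPM in WT, 114 to 175 in OVE853 and 105 to 249 in OVE918, with 249 in OVE918 replicate 1, the OVE918 library that was also highest in Scg2 and Cartpt. A single marker, Trpm1, gave 134 to 213 CPM of this sum in WT, 93.2 to 106 in OVE853 and 62.0 to 91.2 in OVE918. The Müller glia markers summed to 452 to 1470, 218 to 243 and 125 to 229 CPM. The part of the retinal markers in the levels of Scg2 and Cartpt was not tested.

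**Figure D2:**
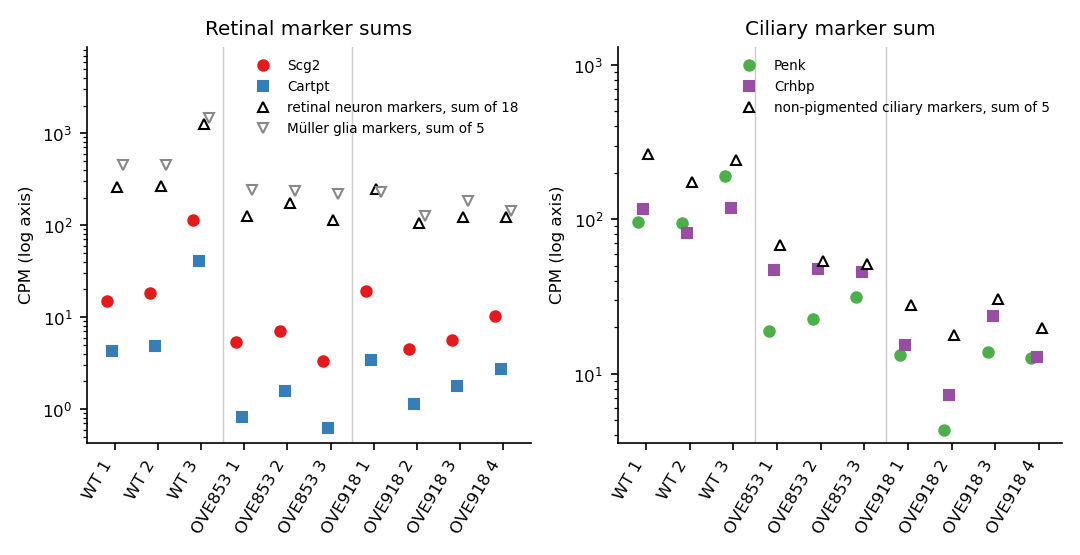
Levels of single genes (filled symbols) and summed levels of marker lists (open symbols) in each of the 10 libraries (x axis), in CPM on a log axis (y axis). Left, Scg2 and Cartpt stand highest in WT replicate 3, where the retinal neuron markers reach 1270 CPM and the Müller glia markers 1470 CPM. Right, Penk, Crhbp and the non-pigmented ciliary markers step down from WT to OVE853 and to OVE918.

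Scg2 (chromosome 1 at 79412386 to 79417837, minus strand, 2 exons) and Cartpt (chromosome 13 at 100034990 to 100047006, minus strand, 3 exons) both carried the full cAMP response element TGACGTCA in the 250 bases before the RefSeq start site. It reads the same on either strand and was found in 1.55% of the 32851 windows. The windows, at chr1:79417744-79417993 and chr13:100037192-100037441 on the minus strand, are shown for this element, with it, CAGAC or its reverse complement and the TATA box core TATAA in capitals.
Scg2: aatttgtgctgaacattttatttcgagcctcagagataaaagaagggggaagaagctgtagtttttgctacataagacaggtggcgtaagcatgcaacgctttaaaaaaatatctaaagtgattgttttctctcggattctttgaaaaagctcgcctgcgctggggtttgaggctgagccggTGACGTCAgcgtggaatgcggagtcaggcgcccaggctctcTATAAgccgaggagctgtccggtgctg
Cartpt: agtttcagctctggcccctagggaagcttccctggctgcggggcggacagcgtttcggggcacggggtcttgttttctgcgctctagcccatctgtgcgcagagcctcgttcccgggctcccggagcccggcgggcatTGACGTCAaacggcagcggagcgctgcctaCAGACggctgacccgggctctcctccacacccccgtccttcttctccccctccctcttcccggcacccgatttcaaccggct
The element began 68 bases before the start of Scg2 and 112 bases before that of Cartpt. The TATA box core was in the windows of Scg2, Sct and Crhbp, and in 22.8% of all windows on either strand. The AP-1 letters TGANTCA, in 6.75% of all windows, were in no window of the 8 genes. None of the searched motifs contains another. The Cartpt window lies inside the GENCODE interval of the gene, since RefSeq starts its transcript downstream of the GENCODE gene start.

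Crhbp, which encodes the secreted protein that binds corticotropin-releasing hormone and keeps it from its receptors, was lower in OVE853 than in WT and lowest in OVE918. It was at 116, 81.2 and 118 CPM in WT, at 47.2, 47.7 and 45.5 CPM in OVE853 and at 15.4, 7.34, 23.8 and 12.9 CPM in OVE918. The 3 groups did not overlap. The means were 105 ± 20.7, 46.8 ± 1.12 and 14.9 ± 6.86 CPM, and the log2 fold change was −1.17 (SE 0.33) in OVE853 and −2.82 (SE 0.31) in OVE918. Without WT replicate 3 it was −1.10 and −2.73, and the gene then no longer met the call for a DEG in OVE853. That call was likewise lost without WT replicate 1, without any 1 of the OVE853 replicates and without OVE918 replicate 1 or 4. It was also lost with no filter on low counts or with a block for replicate number. The gene has 7 exons on chromosome 13, at 95567879 to 95581841 on the minus strand.

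The hormone that this protein binds was hardly found. Crh, Ucn, Ucn2 and Ucn3 had at most 13 counts in any library. Crhr1, the main receptor of the hormone, was at 0.345, 1.04 and 4.11 CPM in WT, at 0.283 ± 0.248 CPM in OVE853 and at 0.367 ± 0.134 CPM in OVE918, and it did not pass the test in either line (FDR 0.0594 and 0.063, quasi-likelihood test of edgeR, adjusted by Benjamini-Hochberg), whereas DESeq2 called it lower in both.

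Markers of the non-pigmented ciliary epithelium (Best2, Slc6a13, Wfdc1, Zic1 and Zic2) went down from group to group, as did Crhbp and Penk. Their sum was 175 to 265 CPM in WT, 51.0 to 68.6 in OVE853 and 17.7 to 30.6 in OVE918, without overlap, and all 5 were detected in every library at levels that passed the filter. Of the 5, 4 were reduced DEGs in OVE853 and 5 in OVE918. Within groups Penk followed the order of the sum in OVE918 but not in WT or OVE853. In WT replicates 1 to 3 the sum was 265, 175 and 242 CPM and Penk 95.7, 94.9 and 191. In OVE853 the sum was 68.6, 53.8 and 51.0 CPM and Penk 18.9, 22.6 and 31.5. In OVE918 replicates 1 to 4 the sum was 27.8, 17.7, 30.6 and 19.8 CPM and Penk 13.3, 4.36, 13.8 and 12.7. The Müller glia sum was lower in both lines as well. Whether the ciliary markers had a part in the levels of Crhbp and Penk was not tested.

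Kng2 and its neighbour Kng1 encode kininogens, from which kallikreins release bradykinin. Kng2 had 5, 5 and 2 counts in WT, or 0.216, 0.186 and 0.0658 CPM. It was at 11.7, 11.9 and 12.1 CPM in OVE853 and at 3.65, 6.14, 5.44 and 8.76 CPM in OVE918. The groups were separated, with both lines above every WT library and OVE853 above OVE918. The means were 0.156 ± 0.0794, 11.9 ± 0.194 and 6.00 ± 2.12 CPM. Relative to WT its log2 fold change was 6.26 (SE 0.42) in OVE853 and 5.27 (SE 0.41) in OVE918, or 5.83 and 4.86 without WT replicate 3, and the low WT counts limit its precision.

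Kng1, a paralog with similar sequence, lies beside Kng2 on chromosome 16, Kng2 at 22804602 to 22848232 on the minus strand and Kng1 at 22876615 to 22900840 on the plus strand. Kng1 had 0 counts in every WT library, 20, 26 and 28 counts in OVE853 and 3, 25, 45 and 76 counts in OVE918. With the WT libraries set at a floor of 3 counts each, it was at least 7.14-fold higher in OVE853 (FDR 0.0333) and at least 13.5-fold higher in OVE918 (FDR 0.0121). Of the counts on both genes, Kng1 took 4.73% to 7.18% in OVE853 and 3.26% to 28.3% in OVE918. Reads shared by the paralogs could be split between them, and Gm6493 overlaps Kng2 on the same strand, so the split is uncertain. The bradykinin receptor Bdkrb2 was at 0.194 ± 0.147 CPM in WT, 0.5 ± 0.394 in OVE853 and 0.738 ± 0.201 in OVE918 (FDR 0.224 and 0.0853), and Bdkrb1 had at most 10 counts.

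Tacr1 encodes the neurokinin-1 receptor, the preferred receptor of substance P. Its level was 196, 238 and 158 CPM in WT, 675, 691 and 613 in OVE853 and 504, 626, 562 and 432 in OVE918. Both lines were above every WT library, and the lines overlapped each other. The means were 197 ± 39.8 CPM in WT, 660 ± 40.9 in OVE853 and 531 ± 82.8 in OVE918. The log2 fold change was 1.74 (SE 0.17) in OVE853 and 1.43 (SE 0.16) in OVE918, the smallest errors among the 9 genes, or 1.58 and 1.29 without WT replicate 3. Tacr1 spans chromosome 6 from 82379278 to 82537085 on the plus strand in 5 exons, and Gm67143 overlaps it on the same strand.

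Tacr3, the neurokinin B receptor, was reduced where Tacr1 was higher. It stood at 9.89, 8.56 and 16.7 CPM in WT and at 1.39 ± 0.583 CPM in OVE853 and 1.37 ± 0.259 in OVE918, or −3.08 (SE 0.35, FDR 0.000423) and −3.10 (SE 0.32, FDR 0.000115) as log2 fold changes. The tachykinin precursors were low and highest in WT replicate 3. Tac1, which encodes substance P, was at 0.777, 0.595 and 2.47 CPM in WT, 0.207 ± 0.158 in OVE853 and 0.366 ± 0.399 in OVE918 (FDR 0.113 and 0.187). Tac2, which encodes neurokinin B, was at 0.173, 0.335 and 3.16 CPM in WT, 0.300 ± 0.242 in OVE853 and 0.5 ± 0.275 in OVE918 (FDR 0.195 and 0.35). Tac4 had at most 2 counts. A list of 19 receptors, ligands and paralogs of the 9 genes, which does not hold Tacr3, had 5 genes that passed the filter, Tac1, Tac2, Kng1, Bdkrb2 and Crhr1, and of these Kng1 was a DEG.

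**Figure D3:**
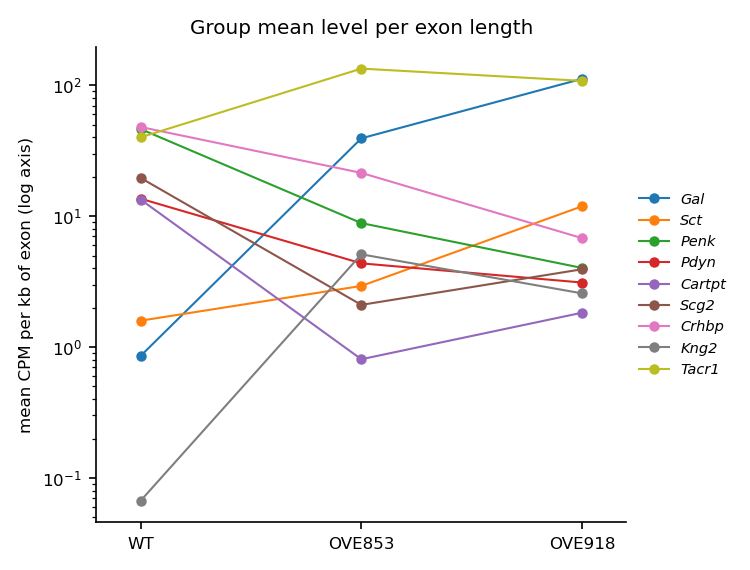
Group mean level of each gene per kilobase of exon (y axis, CPM per kb on a log axis) in WT, OVE853 and OVE918 (x axis); lines join the means of 1 gene. Crhbp, Penk and Tacr1 lead in WT at 40.0 to 48.0, and Gal and Tacr1 lead in OVE918 at 112 and 108.

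Levels per exon length put the genes on a common scale, in CPM per kb. In WT, Crhbp (48.0), Penk (46.3) and Tacr1 (40.0) led, followed by Scg2 (19.6), Pdyn (13.6) and Cartpt (13.4), with Sct (1.59), Gal (0.855) and Kng2 (0.0669) at the bottom. In OVE853 the order was Tacr1 (134), Gal (39.3) and Crhbp (21.4), with Penk at 8.85 and Kng2 at 5.11. In OVE918 Gal (112) and Tacr1 (108) were close, Sct (11.9) came next and Crhbp (6.79) and Penk (4.02) followed. Part of this order rested on WT replicate 3. Without it the WT levels were 45 for Crhbp, 43.9 for Tacr1, 34.7 for Penk, 9.04 for Pdyn, 6.61 for Scg2 and 3.67 for Cartpt, so Tacr1 stood above Penk and Pdyn above Scg2. Gal moved from rank 13633 of 17290 genes with a length in WT to 1020 in OVE853 and 348 in OVE918, while Penk moved from 875, or 1225 without WT replicate 3, to 5017 and 8372.

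Of the 9 genes, 8 met the call for a DEG in OVE853, all but Sct, with 3 higher and 5 lower. In OVE918 8 met it, all but Scg2, with 4 higher and 4 lower. Over all genes tested, 6.89% met it in OVE853, 3.17% higher and 3.72% lower. The share in OVE918 was 8.79%, 3.45% higher and 5.34% lower. The genes were chosen on these contrasts, so these counts are a description. In OVE853 the count was 5 without OVE853 replicate 1 or 2 and 4 without OVE853 replicate 3. Without WT replicate 3 the counts were 6 and 7, as Scg2 and Crhbp no longer met the call in OVE853 and Cartpt no longer met it in OVE918. The groups did not overlap for 8 genes in each line, against 41.3% of all genes in OVE853 and 25.7% in OVE918.

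**Figure D4:**
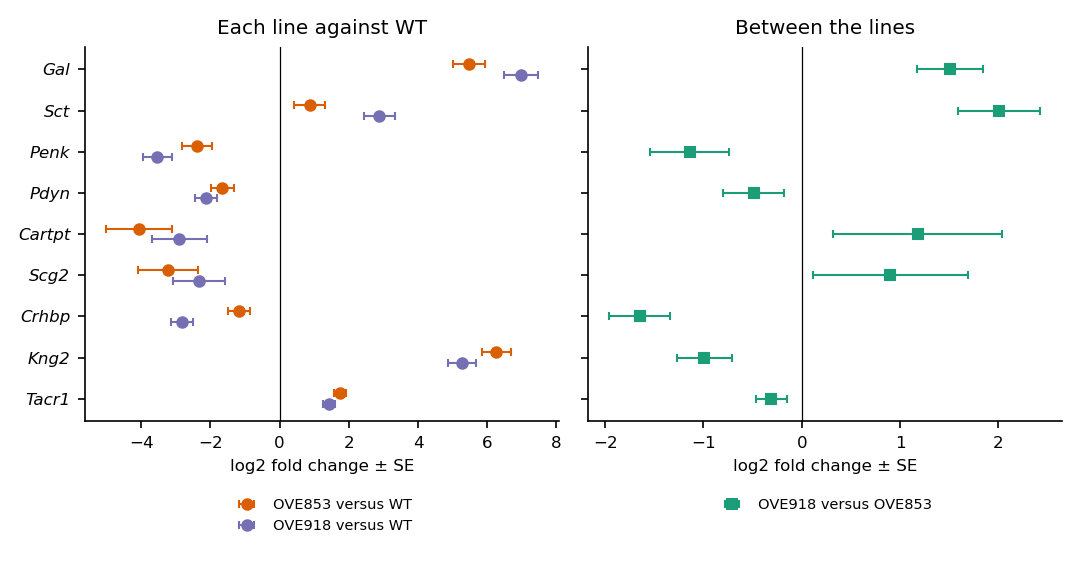
Log2 fold change (x axis, ± SE) of each of the 9 genes for either line against WT (left) and for OVE918 against OVE853 (right); both left-hand series share the WT libraries. Gal at 5.47 and 6.98 and Kng2 at 6.26 and 5.27 lie farthest to the right, and in the right panel Sct at 2.01 and Crhbp at −1.65 lie farthest from 0.

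Whether the 2 lines differ was asked by comparing OVE918 with OVE853. None of the 9 genes was a DEG by the quasi-likelihood test of edgeR, against 0.244% of all genes (44 of 18058). None of the 9 passed a Benjamini-Hochberg FDR of 0.05 without the 2-fold minimum either. An unadjusted p under 0.05 was found for 5, and for 17.7% of all genes. DESeq2, which called 1.17% of all genes (0.388% higher, 0.786% lower), called 4 of the 9, with Gal and Sct higher and Penk and Crhbp lower in OVE918. Groups did not overlap for 5 genes (Gal, Sct, Penk, Crhbp and Kng2), against 23.8% of all genes.

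Crhbp came nearest, 3.15-fold lower in OVE918 by the means, with a log2 difference of −1.65 (SE 0.31, FDR 0.0588) and lower in all 4 OVE918 libraries than in any OVE853 library. Sct was 4.06-fold higher, with a log2 difference of 2.01 (SE 0.42, FDR 0.0713). Gal was 2.84-fold higher, at 1.51 (SE 0.34, FDR 0.0881). Kng2 was at −0.99 (SE 0.28, FDR 0.123) and Penk at −1.14 (SE 0.40, FDR 0.193). Both Crhbp and Sct passed without WT replicate 3, and neither passed when any OVE853 library was left out. Their FDR over 19 settings ran from 1.77e-05 to 0.269 for Crhbp and from 0.000204 to 0.315 for Sct.

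The other 4 genes, like Kng2, gave no call in any setting. The log2 difference, with an interval of 2 standard errors on each side, was −0.49 (−1.11 to 0.14) for Pdyn, −0.31 (−0.62 to 0.00) for Tacr1, 0.90 (−0.69 to 2.48) for Scg2 and 1.18 (−0.54 to 2.90) for Cartpt. A 2-fold difference lies inside the interval for Pdyn, Scg2 and Cartpt, so the lines cannot be called alike for them. Tgfb1 itself was higher in OVE918, by 1.16 on the log2 scale (FDR 0.00731).

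The genes nearest to each of the 9 in profile across the 10 libraries were sought among 14890 genes, by the root mean square difference of centred log2 levels. Nearest to Gal were Spp1 (0.66), Tgfbi (0.71) and Opalin (0.87), all far from it in comparison with the other genes. Tgfbi, a matrix protein induced by TGF-β, was at 3.48 ± 0.653 CPM in WT, 81.4 ± 24.5 in OVE853 and 123 ± 25.6 in OVE918. Near to Sct were Cdkn1a (0.22), which encodes a cell cycle inhibitor, and Fgf21 (0.26), which encodes a secreted growth factor. Nearest to Tacr1 were Rap2b (0.13), Dab2 (0.14) and Igf2r (0.15), and to Kng2 Car9 (0.40), Lbp (0.41) and Bcl3 (0.42).

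Among the reduced genes, Penk was nearest to Slc26a4 (0.31), Slc13a3 (0.35) and Gpx3 (0.39), and Crhbp to Ism2 (0.22), Il33 (0.24) and Ntrk2 (0.25). Pdyn was nearest to Glul (0.23), the glutamine synthetase of Müller glia, Rrh (0.25) and Nxph3 (0.26). Scg2 was nearest to Diras1 (0.16), Nrsn1 (0.16) and Hpcal4 (0.18), and Cartpt to Cplx3 (0.19), Hpcal4 (0.24) and Hpca (0.27). Cplx3, a complexin of retinal synapses, was at 52.0 ± 61.3 CPM in WT, so it too varied strongly between the WT libraries.

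The 9 genes were set beside 203 other genes of the peptide system, in 6 lists of precursors, receptors, processing enzymes, granule proteins, peptidases and the kinin system. The filter left 94 of them. In each line 26 of the 94 (27.7%) were DEGs, 16 elevated and 10 reduced, against 6.89% of all genes in OVE853 and 8.79% in OVE918. The lists were chosen with earlier results of these data known. The filter also kept genes counted in the lines alone, such as Kng1 with 0 counts in every WT library. These shares are therefore a description and not a test of the peptide system. The median log2 fold change of the 94 was −0.02 in OVE853 and −0.23 in OVE918, and that of all genes tested −0.01 and 0.01. Both counts use the same WT libraries. Without WT replicate 3 they were 18 and 23, and without OVE853 replicate 1 or 3 the OVE853 count was 14 or 17.

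**Figure D5:**
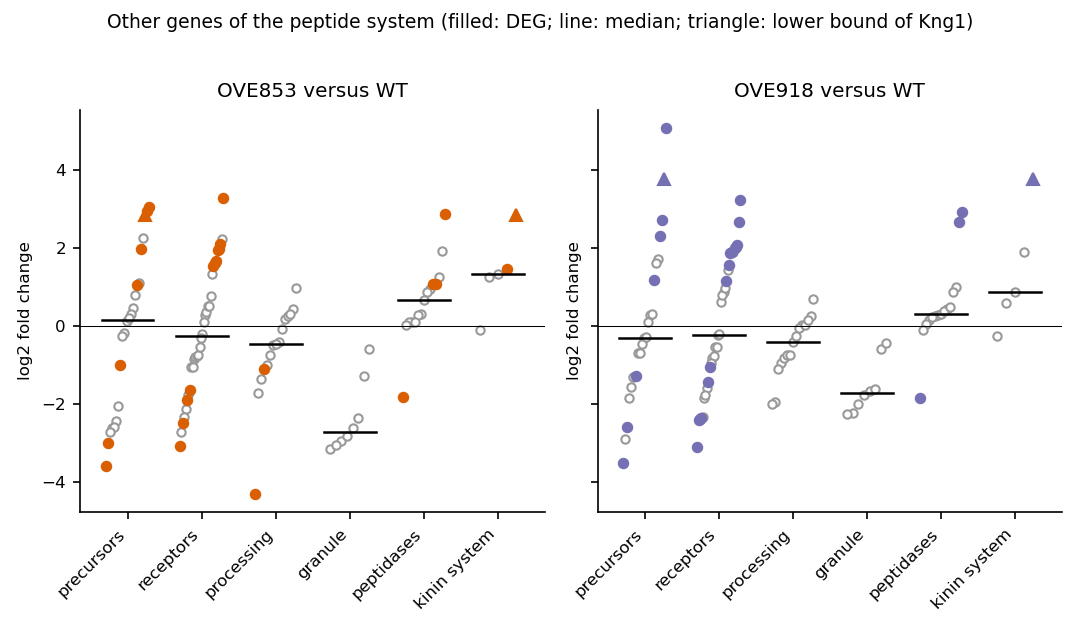
Log2 fold change (y axis) of the 94 other peptide system genes that were tested, by list (x axis), in OVE853 (left) and OVE918 (right) against WT. Filled points are DEGs, lines are list medians and the triangle is the lower bound of Kng1, which is on 2 lists; precursors and receptors hold DEGs on both sides of 0, and all 8 granule genes lie below 0 without a DEG.

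Of 22 other precursors tested, 5 rose and 3 fell in each line. Apln, which encodes apelin, a peptide of vessel growth, rose from 1.34 ± 0.263 CPM in WT to 10.3 ± 2.02 in OVE853 and 8.69 ± 2.02 in OVE918 (log2 fold change 2.94 and 2.7, FDR 9.42e-05 and 5.17e-05). Npw, the precursor of neuropeptide W, had at most 3 counts in a WT library and rose to 0.447 ± 0.267 CPM in OVE853 and 1.86 ± 0.924 in OVE918 (FDR 0.0476 and 0.0019). Edn3 rose in OVE853, at 2.04 ± 0.252 CPM against 0.517 ± 0.107 in WT (FDR 0.0177), and Gcg, which encodes glucagon and GLP-1, in OVE918, at 10.0 ± 4.32 CPM against 2.05 ± 1.48 (FDR 0.0127).

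The precursors that fell were Cck, Edn1 and Ecrg4, in both lines. Edn1, which encodes the vasoconstrictor endothelin-1, went from 2.01 ± 0.392 CPM in WT to 0.246 ± 0.0465 in OVE853 and 0.338 ± 0.185 in OVE918 (log2 fold change −3.00 and −2.58, FDR 0.00299 and 0.00194). Cck, the cholecystokinin precursor, was at 0.561, 0.521 and 3.72 CPM in WT, with WT replicate 3 highest, and at 0.132 ± 0.0452 and 0.138 ± 0.0932 in the lines (FDR 0.0235 and 0.0119), and it lost its call without that library in both. Ecrg4, a secreted precursor with tumor suppressor activity in some tissues, was at 41.3 ± 8.82 CPM in WT, 20.7 ± 1.43 in OVE853 and 17 ± 2.5 in OVE918 (FDR 0.00418 and 0.000337). Kng1, Npw, Nmb, Cck and Ecrg4 lost the OVE853 call without WT replicate 3.

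Of 32 other receptors tested, 7 rose and 4 fell in OVE853, and 9 rose and 6 fell in OVE918. Gipr, the receptor of the gut hormone GIP, had the largest rise, from 0.147 ± 0.186 CPM in WT to 1.55 ± 0.860 in OVE853 and 1.49 ± 0.346 in OVE918 (FDR 0.0163 and 0.0102). The prokineticin receptors moved in opposite directions. Prokr1 fell from 12.4 ± 3.33 CPM to 2.22 ± 0.539 and 2.38 ± 0.382 (log2 fold change −2.48 and −2.37, FDR 0.00028 and 0.000101), and Prokr2 rose from 0.844 ± 0.211 CPM to 2.71 ± 0.0934 and 3.43 ± 0.741 (1.67 and 2.01, FDR 0.00444 and 0.000656).

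Sstr4, a somatostatin receptor, rose in both lines, by 2.10 and 1.86 on the log2 scale (FDR 0.00871 and 0.00811), and Pth1r, the parathyroid hormone receptor, by 1.98 and 1.15 (FDR 0.00391 and 0.0296). Npr1, the receptor of atrial natriuretic peptide, rose by 1.53 and 2.06 (FDR 0.00647 and 0.000526). Aplnr, the apelin receptor, was at 0.181 ± 0.102 CPM in WT, 0.836 ± 0.696 in OVE853 (FDR 0.0642) and 1.14 ± 0.469 in OVE918, where it rose (FDR 0.0249). Beside Tacr3 and Prokr1, Npsr1, the neuropeptide S receptor, fell by 1.90 and 2.38 on the log2 scale (FDR 0.00894 and 0.00099), and Ramp1, a subunit of the CGRP receptor, fell by 1.64 and 2.41 (FDR 0.0323 and 0.00247). Without WT replicate 3, Ramp1 lost its call in OVE853 and Aplnr its call in OVE918. Of 7 endothelial markers, Cdh5 was an elevated DEG in OVE853, and Pecam1, Cdh5, Cldn5 and Tie1 were in OVE918. Their sum, with Kdr at 106 CPM in WT replicate 3, was 21.5 to 111 CPM in WT, 19.6 to 34.0 in OVE853 and 21.6 to 32.5 in OVE918, and their part in the levels of Apln and Aplnr was not tested.

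The enzymes and granule proteins showed few DEGs. Of 15 processing enzymes, Pcsk1, a prohormone convertase, was at 0.216, 0.93 and 3.55 CPM in WT and fell in OVE853 to 0.0773 ± 0.0517 (FDR 0.0212), and Qpct, which caps peptides with pyroglutamate, fell there from 37.5 ± 15.5 to 17.4 ± 0.898 (FDR 0.019). In OVE918 0 of 15 were DEGs by edgeR, with 9 at an unadjusted p under 0.05, as were 32.5% of all genes. DESeq2 called Pcsk1n and Pcsk2 lower there, and 6.62% of all genes.

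None of the 8 granule genes, relatives of Scg2 in function, was a DEG by edgeR in either line, although their median log2 fold change was −2.72 in OVE853 and −1.72 in OVE918. At an unadjusted p under 0.05 there were 7 and 4 of the 8, against 32.8% and 32.5% of all genes. DESeq2 called 3 lower in OVE853 (Chga, Ptprn2 and Cadps) and 0 in OVE918, against 6.01% and 6.62% of all genes. Chga, which encodes chromogranin A, was at 6.17, 7.33 and 50.3 CPM in WT, and Chgb at 12.3, 11.9 and 97.1. Like Scg2 they were highest in WT replicate 3, and without that library the list medians were −1.26 and −0.33.

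Of 15 peptidases, 3 rose and 1 fell in OVE853 and 2 rose and 1 fell in OVE918. Anpep, aminopeptidase N, which cuts enkephalins, rose from 2.80 ± 0.936 CPM in WT to 20.4 ± 3.43 in OVE853 and 17.8 ± 4.36 in OVE918 (log2 fold change 2.87 and 2.67, FDR 0.000249 and 0.000156). Enpep, aminopeptidase A, which cuts angiotensin II, fell by 1.83 and 1.86 on the log2 scale (FDR 0.00182 and 0.000526). Ece1, the endothelin-converting enzyme, rose from 209 ± 41.6 to 441 ± 15.7 CPM in OVE853 (FDR 0.00211), and in OVE918 its log2 fold change of 0.99 was just under the minimum (FDR 0.00133). Cpm rose in OVE853 (1.07, FDR 0.0429) and Ecel1 in OVE918 (2.92, FDR 0.0263). Ecel1 rested on few counts, with 2, 1 and 5 in WT and 32, 16, 4 and 24 in OVE918. OVE918 replicate 3 (0.144 CPM) lay below WT replicate 3 (0.165 CPM), so these groups overlapped for Ecel1. Ece1, Cpm and Qpct lost their calls in OVE853 without WT replicate 3.

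Of the 5 kinin system genes tested, Kng1 rose in both lines and Serping1, the inhibitor of plasma kallikrein and complement C1, in OVE853, from 69.6 ± 15.0 to 192 ± 28.8 CPM (log2 fold change 1.46, FDR 0.000615). Between OVE918 and OVE853, 0 of the 94 genes were DEGs by edgeR, against 0.244% of all genes. An unadjusted p under 0.05 was found for 16 of the 94 and for 17.7% of all genes, so the 16 are not read as a difference. DESeq2 called 2, Npvf and Cpm, both lower in OVE918, against 1.17% of all genes.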

How the data were processed

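Per the submitters' processing notes, the authors used cutadapt 5.2, STAR 2.7.11b on GRCm39 and featureCounts 2.0.8, and they deposited raw read counts per gene, 50763 genes in 10 columns, all matched to a sample. Strand was used in counting. The counts were analysed here with edgeR 4.0.16 in R 4.3.3: TMM, filterByExpr by group (18058 genes), a robust quasi-likelihood fit over 3 groups and 3 contrasts, and Benjamini-Hochberg adjustment over all genes tested. DEGs had an FDR of 0.05 or less and a change of 2-fold or more. The SE was taken from the fold change and its F statistic. The rule of the study, at least 2 FPKM in 5 of 10 libraries, was run as an alternative with GENCODE rather than the authors' exon lengths, and in that form it left Cartpt untested. Exon lengths and positions came from GENCODE vM39, and promoter windows from RefSeq, placed on GRCm39 by exact match; 8 of the 9 genes had one. Likeness used log2(CPM + 0.5) of genes with a mean CPM of at least 1. The 9 genes and the lists were chosen with earlier results of these data known. Named in the text are the 9 genes, their tested partners, the 3 largest called rises and falls of each list and contrast, and the 3 nearest profiles, of which 1 result is not reported here; Prokr2, Edn3, Gcg, Nmb, Chga, Chgb and genes called by DESeq2 alone fall outside this and were picked after their values were seen. Fits were tested on simulated counts. Depth limits low genes. Floors (3 counts) cover counting error only, while the SE includes the spread between pools. Alternatives comprised DESeq2 1.42.0, upper-quartile scaling, no filter, no robust estimation, separate fits of the groups compared, a replicate block, the number in the authors' library names as a term, no minimum fold change and leaving out each library; bias-adjusted deviances were added after seeing the data.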

Additional observations from a re-analysis of the deposited data

Results flagged for a closer look

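Among the levels of the 9 genes in the 4 OVE918 libraries, one value stood far from its group. Penk was at 4.36 CPM in OVE918 replicate 2, against 13.3, 13.8 and 12.7 CPM in replicates 1, 3 and 4, a gap larger than Dixon's 95% limit for the group. Chance alone marks about 1 in 20 groups in this way, and 9 genes were examined. The same library was also the lowest of its group in Crhbp (7.34 CPM), in Scg2 (4.47 CPM) and in the sum of the non-pigmented ciliary markers (17.7 CPM). Without it the log2 difference of Penk between OVE918 and OVE853 was −0.87, against −1.14 with all libraries.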

How the results depend on the processing

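No log2 fold change of the 9 genes changed sign under any of the 19 alternatives that gave a value (18 for Cartpt, untested under the FPKM filter as run here with GENCODE lengths). The widest ranges over leaving out each library were those of Cartpt (−4.52 to −2.22 in OVE853 and −3.34 to −1.02 in OVE918) and Scg2 (−3.65 to −1.68 and −2.87 to −0.76), each nearest to 0 without WT replicate 3. The counts moved more. For OVE853 versus WT, 1244 DEGs (572 higher, 672 lower) became 491 (279 higher, 212 lower) under the FPKM filter, 817 in a fit of only the groups compared, 2449 with no minimum fold change and 585 to 1931 on leaving out each library. For OVE918 versus WT, 1587 became 620 under the FPKM filter and 3050 with no minimum fold change, and leaving out each library gave 1294 to 2065. For OVE918 versus OVE853, 44 (9 higher, 35 lower) became 212 by DESeq2 (70 higher, 142 lower), 169 with only the groups compared (64 higher, 105 lower), 10 with the library-name number as a term, 68 with no minimum fold change and 0 to 171 on leaving out each library, the last without WT replicate 3 and the 0 without any 1 of the OVE853 replicates. Among the other peptide system genes, 26 became 7 in OVE853 and 6 in OVE918 under the FPKM filter, which tests 38 of them, and 14 to 39 and 23 to 35 on leaving out each library. Between the lines 0 became 2 by DESeq2, 1 with no filter, 1 under the FPKM filter, 5 with only the groups compared and 0 to 4 on leaving out each library. Of the 9 genes between the lines, 0 became 4 by DESeq2, 1 with no filter (Sct), 2 under the FPKM filter, 2 with only the groups compared, 1 with no robust estimation (Crhbp) and 0 to 2 on leaving out each library. Of the 9 genes in OVE853 against WT, 8 met the call, but 5 with no filter or without OVE853 replicate 1 or 2, 4 without OVE853 replicate 3 (Gal, Kng2, Tacr1 and Penk), 6 with only the groups compared and 7 by DESeq2. In OVE918 8 met it, and 7 to 9 did on leaving out each library. The causes were not tested. The FPKM filter left 11089 genes, against 18058 in the main fit.

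The replicate numbers of the labels share no stated origin, and same-numbered libraries did not deviate together (r from −0.42 to 0.28 over 9 pairs). Pairs with unlike numbers varied as much, such as WT replicate 3 with OVE918 replicate 1 (0.52) and replicate 2 (−0.42). The check therefore cannot exclude a shared origin. With the replicate block, DEGs between the lines went from 44 to 6, those of OVE853 to 866 and those of OVE918 to 1155, peptide system DEGs to 18, 22 and 0, and 0 of the 9 genes passed between the lines. Against WT 5 of the 9 met the call in OVE853 with the block and 7 in OVE918.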
